A study of Mus musculus with 32 samples.

Results

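The hippocampus of light-treated 5xFAD mice was compared with that of WT mice, to see which disease-associated differences in gene expression were present after treatment. The members were 8 hippocampal RNA-seq libraries of the 32 libraries in the series, 4 of the group 5xFAD+L and 4 of the group WT. They were taken by genotype and treatment label, with earlier results of these data known. Expression was given as FPKM (fragments per kilobase of transcript, scaled to the size of the library). The genes tested were the 12618 of 22337 with an FPKM at or above 1 in 3 or more of these 8 samples. 5xFAD mice carry mutated human transgenes of familial Alzheimer's disease, APP among them, under regulatory sequence of Thy1, a gene of neurons, and deposit amyloid at a young age. The 5xFAD+L mice carried the same transgenes and received repeated sessions of near-infrared light through the shaved scalp under anaesthesia. The authors state that control mice were likewise anaesthetised and shaved and were then placed under indoor lighting. They do not say by name that the WT and untreated 5xFAD mice of the hippocampal RNA-seq had this procedure. If those mice did not, light and these procedures cannot be told apart. WT mice were littermates without the transgenes on the same C57BL/6J background, and all mice were male and 6 months old. The 4 untreated 5xFAD hippocampi stand beside the 2 groups as a reference and entered the same fit. No light-treated WT group was analysed here, so that an effect of light and an effect of light in the presence of the transgenes cannot be told apart, and each group is 4 mice with 1 library each.

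Around amyloid deposits, microglia, the resident macrophages of the brain, leave their resting state and switch on a programme driven by the receptor TREM2 and its adaptor TYROBP, with cathepsins, lipid-handling proteins and chemokines, while part of them respond to interferon or present antigen through MHC molecules. Astrocytes nearby become reactive and raise the filament protein GFAP. The hippocampus, which is needed for spatial memory, holds excitatory pyramidal and granule cells and a smaller population of GABAergic interneurons, among them the somatostatin cells that target distal dendrites. In bulk tissue, more cells of a type and more RNA per cell cannot be told apart.

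The libraries held between 16287000 and 18317442 estimated counts in 5xFAD+L, between 14726383 and 23856476 in WT and between 13952825 and 22190051 in 5xFAD. Excitatory genes of the hippocampal subfields summed to 1326 to 1790 FPKM in 5xFAD+L and 1200 to 1387 FPKM in WT, and no gene of the marker lists was at 0 in all 12 libraries. Some libraries held genes of neighbouring tissue. Replicate 1 of 5xFAD+L had 112 FPKM of Gh and 91.1 FPKM of Pomc, hormone genes of the pituitary, against at most 4.17 FPKM for either gene in the other 3 light-treated and the 4 WT mice. Untreated 5xFAD mice had such genes as well, with 66.6, 547, 83.1 and 0.57 FPKM of Gh and 7.08, 225, 13.5 and 1.34 FPKM of Pomc. Replicate 2 of 5xFAD+L had 20.2 FPKM of Slc17a6, 25.5 FPKM of Gpr151 and 39.0 FPKM of Tcf7l2, genes of thalamus and habenula, against at most 3.81, 1.23 and 9.02 FPKM in the other 7 mice. Replicate 2 of WT had 2739.8 FPKM of the choroid plexus gene Ttr, against 31.7 to 392 FPKM in the other WT mice, and untreated 5xFAD had 3136, 2877, 677 and 197 FPKM. Counts and the less stable calls are also given without replicates 1 and 2 of 5xFAD+L.

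By edgeR's quasi-likelihood test, 276 genes were at least 2-fold higher and 13 at least 2-fold lower in 5xFAD+L than in WT hippocampus at a Benjamini-Hochberg adjusted p below 0.05, which is 2.19% and 0.103% of the genes tested. At the adjusted p alone, 374 genes (2.96%) were higher and 69 (0.547%) were lower. The 2 groups did not overlap in 269 of the 276 genes, an order in the higher direction that 7.13% of all genes tested showed, and 93 of them were below 1 FPKM in all 4 WT mice, so that they passed the filter through the 5xFAD+L samples. The higher genes at any fold numbered 263 to 358 when 1 of the 8 mice was left out. The lower genes were less stable, at 21 without replicate 1 of WT, 34 without replicate 3, 38 without replicate 4 and 45 without replicate 2 of WT, and at 35, 36 and 43 without replicates 1, 2 and 4 of 5xFAD+L, and the 13 lower by 2-fold became 7 without replicate 1 and 8 without replicate 4 of WT and 20 without replicate 3 of 5xFAD+L. The untreated 5xFAD mice, compared with the same WT samples in the same fit, gave 764 higher (6.05%) and 238 lower (1.89%) genes at the adjusted p, together 1002, or 656, 654 and 583 without replicate 1, 3 or 4 of WT. Directly between 5xFAD+L and 5xFAD, 33 genes were higher (0.262%) and 21 lower (0.166%). That last count was not stable, also to WT mice, which enter this comparison only through the filter and the shared estimate of the spread. It was 0 when replicate 1, 2 or 4 of 5xFAD+L or replicate 1 or 4 of WT was left out, 1 without replicate 3 of WT, 6 without replicate 2 of WT and 78 without replicate 3 of 5xFAD+L, while DESeq2 gave 608 genes with all mice. Without replicate 3 of 5xFAD, which had the lowest total count of the 12 libraries, it was 3.

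**Figure D1:**
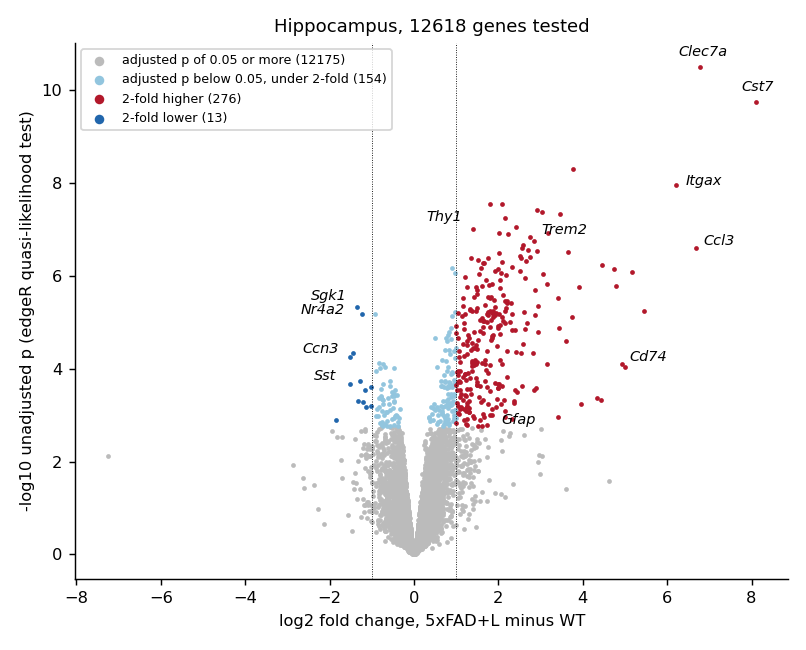
Log2 fold change of 5xFAD+L over WT (x axis) against the negative log10 of the unadjusted p of edgeR's quasi-likelihood test (y axis) for the 12618 genes tested, 1 point per gene, coloured by call. The 276 genes at least 2-fold higher reach far right, with Cst7 at 8.11 and Clec7a at 6.77, whereas the 13 at least 2-fold lower are few, with Sst at -1.51 and Sgk1 at -1.34.

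Genes of plaque-associated microglia were strongly raised in light-treated 5xFAD hippocampus. Of the 36 genes of this list, 34 passed the filter, 25 were higher than in WT (against 2.96% of all genes tested), none was lower, and 8 of the 25 were below 1 FPKM in all WT mice. The list's median log2 fold change was 2.21, beside -0.002 over all genes tested and 2.26 for the same genes in untreated 5xFAD against WT. Without the genes below 1 FPKM in all WT mice, the list's medians were 1.64 for 5xFAD+L and 2.06 for untreated 5xFAD. Cst7, which encodes the cathepsin inhibitor cystatin F and lies at chr2:150570415-150578944 (GRCm38), measured 102, 90.98, 233 and 185 FPKM in the 4 light-treated mice and 0.38, 0.5, 0.61 and 0.78 FPKM in WT. Not one WT mouse reached 1 FPKM, and the fitted difference was 276-fold (log2 fold change 8.11 ± 0.48 SE, adjusted p = 1.14e-06). Clec7a, the pattern receptor dectin-1, measured 11.1, 9.41, 18.9 and 17.4 FPKM against 0.13, 0.07, 0.09 and 0.08 FPKM, a log2 fold change of 6.77 ± 0.35 (adjusted p = 4.06e-07). Itgax, the integrin CD11c, stood at 1.84, 2.66, 3.34 and 3.13 FPKM against 0.01, 0, 0.08 and 0.05 FPKM, with a log2 fold change of 6.22 ± 0.51 (adjusted p = 3.56e-05). These 3 genes, near absent from the WT hippocampus, were at clearly measurable levels in each light-treated animal. They passed the filter through the light-treated mice. Trem2, the lipid-sensing receptor on which the programme depends, measured 116, 106, 231 and 219 FPKM in 5xFAD+L, 25.04, 19.9, 27.2 and 23.1 FPKM in WT and 280.5, 170.4, 154 and 174 FPKM in 5xFAD. The light-treated values fell in a lower and a higher pair, both above WT, with the lower pair below all untreated mice and the higher pair within their range, and a log2 fold change of 2.84 ± 0.29 against WT (adjusted p = 0.000133) and -0.22 ± 0.27 against 5xFAD (95% interval -0.80 to 0.36, adjusted p = 0.699). Its signalling adaptor Tyrobp rose likewise, from 71.2 to 90.5 FPKM in WT to 309, 294, 657 and 585 FPKM in 5xFAD+L (log2 fold change 2.54 ± 0.28, adjusted p = 0.000185). The lysosomal glycoprotein gene Cd68, with a log2 fold change of 3.03 ± 0.28, and the cathepsin gene Ctsz, with 2.09 ± 0.18, also rose. Apoe, the lipid carrier of the same list, did not pass the test, at 4239.6 to 5567 FPKM against 3378 to 3785 FPKM (log2 fold change 0.48 ± 0.13, adjusted p = 0.0682).

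Markers of resting microglia were higher as well, by smaller factors. Of the 20 genes, all tested, 13 were higher (against 2.96% of all genes tested) and none lower in 5xFAD+L than in WT. The median log2 fold change was 1.01 (1.24 in untreated 5xFAD against WT). The fractalkine receptor gene Cx3cr1 measured 42.4, 47.1, 54.3 and 62.6 FPKM against 24.3, 23.5, 22.7 and 23.2 FPKM in WT (log2 fold change 1.15 ± 0.16, adjusted p = 0.00073). Every light-treated mouse was above every WT mouse. The lectin gene Siglech rose from 23.6 to 31.4 FPKM to 51.4 to 82.9 FPKM, with a log2 fold change of 1.26 ± 0.16. The purinergic receptor gene P2ry12 had the smallest called change, 0.56 ± 0.14 (adjusted p = 0.0424), and Tmem119 was not called (0.56 ± 0.17, adjusted p = 0.103); both were singled out after their values were seen. Aif1, whose product IBA1 is the usual microglial stain, measured 29.2, 20.3, 47.4 and 48.3 FPKM in 5xFAD+L, 12.1, 12.97, 14.3 and 12.9 FPKM in WT and 66.5, 40.7, 44.4 and 44.1 FPKM in 5xFAD. Replicates 1 and 2 of 5xFAD+L were below all untreated 5xFAD mice and above all WT mice, and replicates 3 and 4 lay within the untreated range. Its log2 fold change was 1.49 ± 0.27 against WT (adjusted p = 0.00477) and -0.44 ± 0.26 against 5xFAD (95% interval -0.99 to 0.11, adjusted p = 0.38). Markers of border macrophages and of blood (red cells, lymphocytes and neutrophils) were the other such markers measured. Only 3 of 10 border macrophage genes passed the filter, their list summing to 4.44 to 8.87 FPKM in 5xFAD+L and 4.71 to 7.44 FPKM in WT, and only 5 of 22 blood genes did, 4 globin genes and the T cell receptor gene Trbc2, the whole list summing to 49.9, 81.6, 334 and 62.8 FPKM in 5xFAD+L and 12.2 to 81.5 FPKM in WT. All 5 blood genes had a positive log2 fold change against WT, with a median of 1.56 (1.90 in untreated 5xFAD), the highest levels being in replicate 3. None of these 8 tested genes was called by edgeR, DESeq2 or limma, with 1 blood gene higher at an unadjusted p below 0.05, and their part in the result was not tested.

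**Figure D2:**
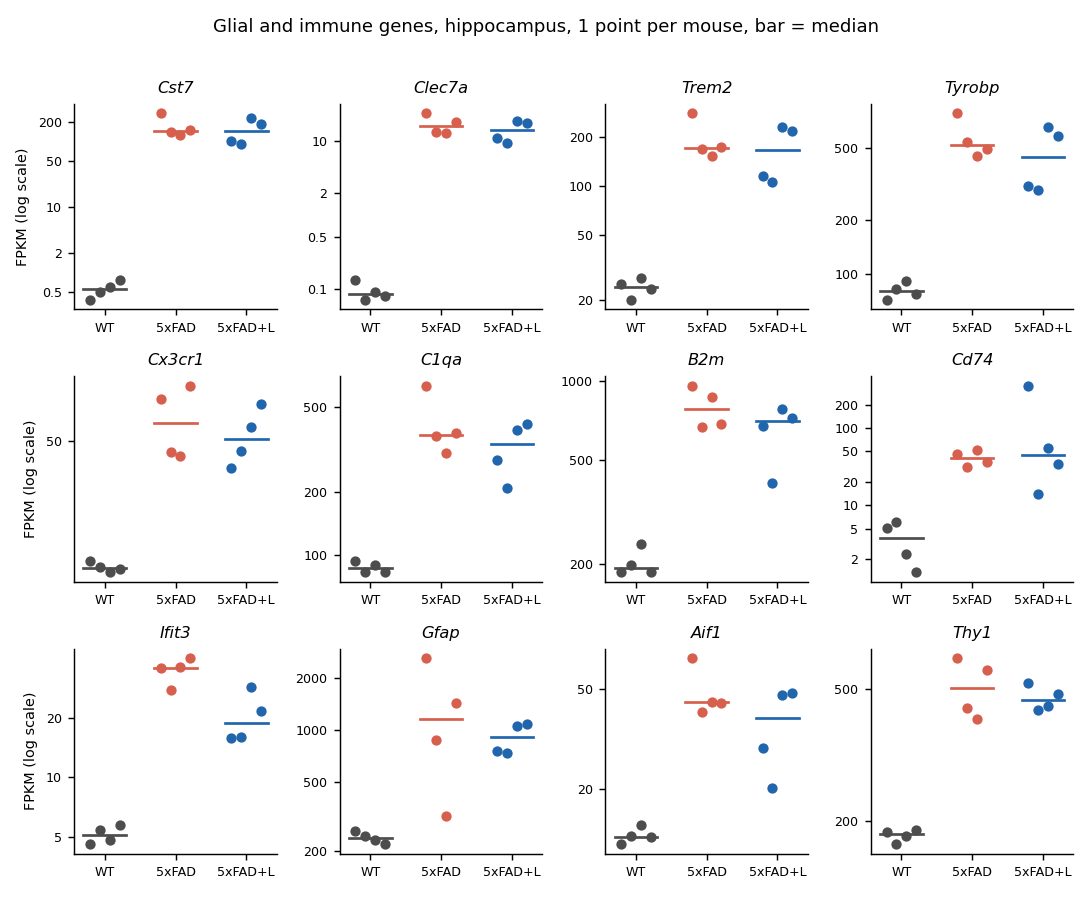
FPKM on log y axes of 12 glial, immune and transgene-related genes in WT, 5xFAD and 5xFAD+L hippocampus, 1 point per mouse (4 a group, replicates 1 to 4 from left to right) and a bar at the group median. In all 12 panels the 4 light-treated mice lie above the 4 WT mice, as for Cst7 with 90.98 to 233 FPKM against at most 0.78 FPKM.

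The raised genes were not equally high in the 4 light-treated mice. Among the 276 raised genes, 186 (67.4%) had both replicates 1 and 2 below replicates 3 and 4, whereas 8 (2.9%) had the opposite order. Over all 12618 genes these orders were found in 20.5% and 28.3%. Replicates 1 and 2 were the libraries that held pituitary or thalamic genes. The summed level of the 36 plaque-associated genes, for instance, was 6569, 6932, 9688 and 9329 FPKM in replicates 1 to 4, against 4129 to 4598 FPKM in WT, and that of the 20 resting markers was 5946, 5504, 8295 and 8115 FPKM against 4861 to 5734 FPKM in WT. The part of neighbouring tissue in this order was not tested. With both left out, 19 of the plaque-associated and 16 of the resting markers were called higher, and 206 genes in all were at least 2-fold higher.

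Complement and antigen presentation genes rose together. Of 17 complement genes tested 11 were higher (against 2.96% of all genes tested) and none lower. Their median log2 fold change was 0.89, beside 1.39 in untreated 5xFAD. C1qa, a chain of the initiating C1q molecule that tags synapses and debris, measured 283, 209, 389.8 and 417 FPKM in 5xFAD+L, 93.7, 83.3, 89.9 and 83.8 FPKM in WT and 633, 365, 303 and 377 FPKM in 5xFAD. All 4 light-treated mice were above WT (log2 fold change 1.91 ± 0.25, adjusted p = 0.000585), and the difference from 5xFAD was -0.38 ± 0.24 (95% interval -0.90 to 0.15, adjusted p = 0.424). The anaphylatoxin receptor gene C3ar1 went from 0.57 to 0.85 FPKM to 3.3 to 5.93 FPKM (log2 fold change 2.70 ± 0.29) and Itgb2, the shared chain of the complement receptors CR3 and CR4, from 2.32 to 2.99 FPKM to 7.94 to 12.4 FPKM (1.93 ± 0.22). For MHC class I, which displays peptides of the cell's own proteins, 10 of 20 genes were higher and none lower. B2m, its invariant light chain, measured 677, 407, 783 and 726 FPKM against 187, 198, 238 and 186 FPKM in WT (log2 fold change 1.70 ± 0.21, adjusted p = 0.000307). H2-D1, a classical heavy chain, rose by 2.06 ± 0.24, the immunoproteasome subunit gene Psmb8 by 2.05 ± 0.25 and the peptide transporter gene Tap1 by 1.36 ± 0.19 on the log2 scale. Replicate 2 was the lowest light-treated mouse for all 4 of these genes, and still above WT. Several H2 genes are close copies of one another, so that their separate estimated counts are uncertain.

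MHC class II, the peptide display of professional antigen-presenting cells, was the group in which 1 animal stood out most. Of 11 genes tested 10 were higher (against 2.96% of all genes tested) and none lower. Their median log2 fold change was 2.40, and 2.18 in untreated 5xFAD against WT. Cd74, the invariant chain, measured 352, 14.1, 54.3 and 33.8 FPKM in 5xFAD+L, 5.12, 6.07, 2.36 and 1.36 FPKM in WT and 46.4, 31.3, 52.2 and 36.5 FPKM in 5xFAD. Replicate 1 was above every other mouse by a wide margin, and the other 3 were above WT, replicate 2 below all untreated mice and replicates 3 and 4 near their range. With all mice the log2 fold change was 4.94 ± 0.89 (adjusted p = 0.00501), and without replicate 1 it was 3.22 (adjusted p = 0.00203). H2-Ab1, a class II beta chain, behaved in the same way, at 122, 4.86, 15.5 and 11.8 FPKM against 1.19, 1.96, 0.72 and 0.88 FPKM, with a log2 fold change of 5.01 ± 0.91, or 3.19 without replicate 1 (adjusted p = 0.00556 and 0.00123). H2-Aa, the alpha chain, at 108, 3.37, 13.9 and 8.01 FPKM against 1.72, 2.97, 0.47 and 1.16 FPKM (adjusted p = 0.0189), lost its call without replicate 1, 3 or 4 of WT (adjusted p = 0.0693, 0.0751 and 0.0771). The 10 calls became 5 without replicate 4 of WT and stayed at 10 without replicate 1 of 5xFAD+L. The class II peptide-loading genes H2-Ob and H2-DMb1 and the cathepsin gene Ctss kept their calls without any 1 of the 8 mice. Ctss measured 330.0, 264, 489 and 471 FPKM against 115, 108, 118 and 101 FPKM (log2 fold change 1.83 ± 0.24, adjusted p = 0.000543).

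Most interferon-stimulated genes were higher in 5xFAD+L than in WT, by a smaller median difference than in untreated 5xFAD. Of 49 genes 40 were tested and 29 were called higher (against 2.96% of all genes tested), none lower. Of the 29, 11 were below 1 FPKM in every WT mouse. The median log2 fold change was 1.73 over WT, beside 2.32 for untreated 5xFAD against WT. Without the genes below 1 FPKM in all WT mice, these medians were 1.21 and 1.65. Ifit3, an antiviral effector, measured 15.7, 16.03, 28.6 and 21.7 FPKM in 5xFAD+L, 4.56, 5.37, 4.81 and 5.72 FPKM in WT and 35.7, 27.8, 36.1 and 40.3 FPKM in 5xFAD. The 3 groups were ordered WT, 5xFAD+L, 5xFAD, with 1 light-treated mouse reaching into the untreated range. Its log2 fold change was 2.02 ± 0.20 against WT (adjusted p = 0.000108) and -0.77 ± 0.19 against 5xFAD (95% interval -1.18 to -0.37, adjusted p = 0.0836). Oasl2, of the oligoadenylate synthetase family, and Ifi204, a DNA sensor, rose by 2.93 ± 0.31 and 4.74 ± 0.55. Between 5xFAD+L and 5xFAD, 39 of the 40 genes had a negative log2 fold change, with a median of -0.53, beside a median of -0.017 over all genes tested. None of the 40 passed the adjusted p in edgeR, whereas 18 were lower and none higher at an unadjusted p below 0.05. DESeq2 called 5 lower and limma none. Without replicates 1 and 2 of 5xFAD+L, 17 of the list were called higher than WT.

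The promoters of 3 of these genes are shown because the letters of the interferon-stimulated response element, GAAANNGAAA on either strand, occur in them. They are the 250 bases before the RefSeq start of each gene (GRCm38.p6), read 5′ to 3′ on the gene's strand, at chr19:34583279-34583528 on the plus strand for Ifit3, at chr4:156200819-156201068 on the minus strand for Isg15, which encodes a ubiquitin-like protein, and at chr5:92348890-92349139 on the minus strand for Cxcl10, a chemokine. Capitals mark the matches, 2 in Ifit3, 3 overlapping ones in Isg15 and 1 in Cxcl10.
Ifit3: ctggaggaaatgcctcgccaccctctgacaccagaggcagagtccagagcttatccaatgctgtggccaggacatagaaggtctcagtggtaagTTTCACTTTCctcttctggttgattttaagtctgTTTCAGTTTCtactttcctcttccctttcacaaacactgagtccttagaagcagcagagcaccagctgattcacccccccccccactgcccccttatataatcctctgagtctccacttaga
Isg15: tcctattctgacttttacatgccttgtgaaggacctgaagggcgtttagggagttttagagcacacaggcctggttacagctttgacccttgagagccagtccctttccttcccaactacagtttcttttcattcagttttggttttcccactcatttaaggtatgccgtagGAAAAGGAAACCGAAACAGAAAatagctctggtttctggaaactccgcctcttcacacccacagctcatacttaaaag
Cxcl10: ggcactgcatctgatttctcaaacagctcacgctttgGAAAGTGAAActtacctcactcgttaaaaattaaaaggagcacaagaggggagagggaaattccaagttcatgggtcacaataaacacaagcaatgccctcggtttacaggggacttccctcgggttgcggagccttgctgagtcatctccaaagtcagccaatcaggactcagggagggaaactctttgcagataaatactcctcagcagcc

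Of the 29 raised interferon-stimulated genes, 22 had a promoter in the RefSeq table and 11 of these held the motif, beside 305 of 10001 tested genes with a promoter (3.05%) and 2.98% of all 32851 promoters of this length. Isg15 was looked up after its values were seen. Isg15 measured 4.97, 1.98, 7.16 and 5.48 FPKM in 5xFAD+L and 1.11, 1.01, 0.66 and 0.44 FPKM in WT, with no overlap (log2 fold change 2.59 ± 0.42, adjusted p = 0.00231). Cxcl10, which attracts T cells, measured 5.47, 2.55, 6.7 and 6.48 FPKM against 0.69, 0.55, 0.24 and 0.19 FPKM, and 19.5, 4.41, 5.35 and 8.84 FPKM in 5xFAD (log2 fold change against WT 3.60 ± 0.58, adjusted p = 0.00207). A match of letters describes the window and does not show that a factor binds there. The list was chosen for genes that respond to interferon, so that the share with the motif describes the list and not the light-treated mice. Members of the list that were not called were not counted.

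Genes of other microglial functions were higher too. Of 46 cathepsin and other lysosomal genes 19 were higher (against 2.96% of all genes tested) and none lower. Their median log2 fold change was 0.28, and 0.50 in untreated 5xFAD. Grn, the progranulin precursor that is delivered to lysosomes, rose from 31.4 to 39.3 FPKM to 79.3 to 101 FPKM (log2 fold change 1.35 ± 0.15), and Ctsd, the aspartic protease cathepsin D, from 302 to 362 FPKM to 954 to 1602 FPKM (1.98 ± 0.23). Of 16 Fc receptors and leukocyte receptors with immunoreceptor motifs 14 were higher, with a median of 1.95. Fcer1g, the signalling chain shared by Fc receptors, measured 97.4, 88.01, 195 and 188 FPKM against 23.1, 37.1, 44.05 and 25.8 FPKM in WT (log2 fold change 2.15 ± 0.29, adjusted p = 0.000597), and the inhibitory collagen receptor gene Lair1 rose by 1.80 ± 0.16. Of 9 Toll-like receptors and partners 5 were higher, with Tlr2 at 2.09, 3.15, 4.1 and 3.93 FPKM against 0.22, 0.47, 0.93 and 0.32 FPKM (log2 fold change 2.83 ± 0.48, adjusted p = 0.0033) and the co-receptor gene Cd14 higher by 2.00 ± 0.30. Of 14 chemokine genes 8 were higher and none lower by edgeR, while DESeq2 called 9 higher and 1 lower. In 5 of the 8 all WT mice were below 1 FPKM, and the list's median log2 fold change was 2.00 with such genes and 0.285 without them. Ccl3 measured 5.76, 9.58, 19.1 and 17.1 FPKM in 5xFAD+L, 0.16, 0, 0.17 and 0.13 FPKM in WT and 13.4, 10.1, 4.18 and 3.86 FPKM in 5xFAD. It was nearly absent from WT, and replicates 3 and 4 of 5xFAD+L had the highest levels of all 12 mice (log2 fold change against WT 6.68 ± 0.71, adjusted p = 0.000162, against 5xFAD 0.68 ± 0.45, 95% interval -0.28 to 1.65). The related chemokine genes Ccl4 and Ccl6 rose by 5.17 ± 0.60 and 3.76 ± 0.29.

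Across the 10 microglial and immune lists together, 213 genes were tested, and edgeR called 130 higher and none lower than in WT, DESeq2 145 higher and 1 lower, and limma 123 higher and none lower. In the direct comparison of 5xFAD+L with 5xFAD none of the 213 was called by edgeR, with 7 higher and 37 lower at an unadjusted p below 0.05, while DESeq2 called 2 higher and 7 lower and limma on log2(FPKM + 1) none. The median log2 difference was -0.25, with 176 of 213 negative.

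**Figure D3:**
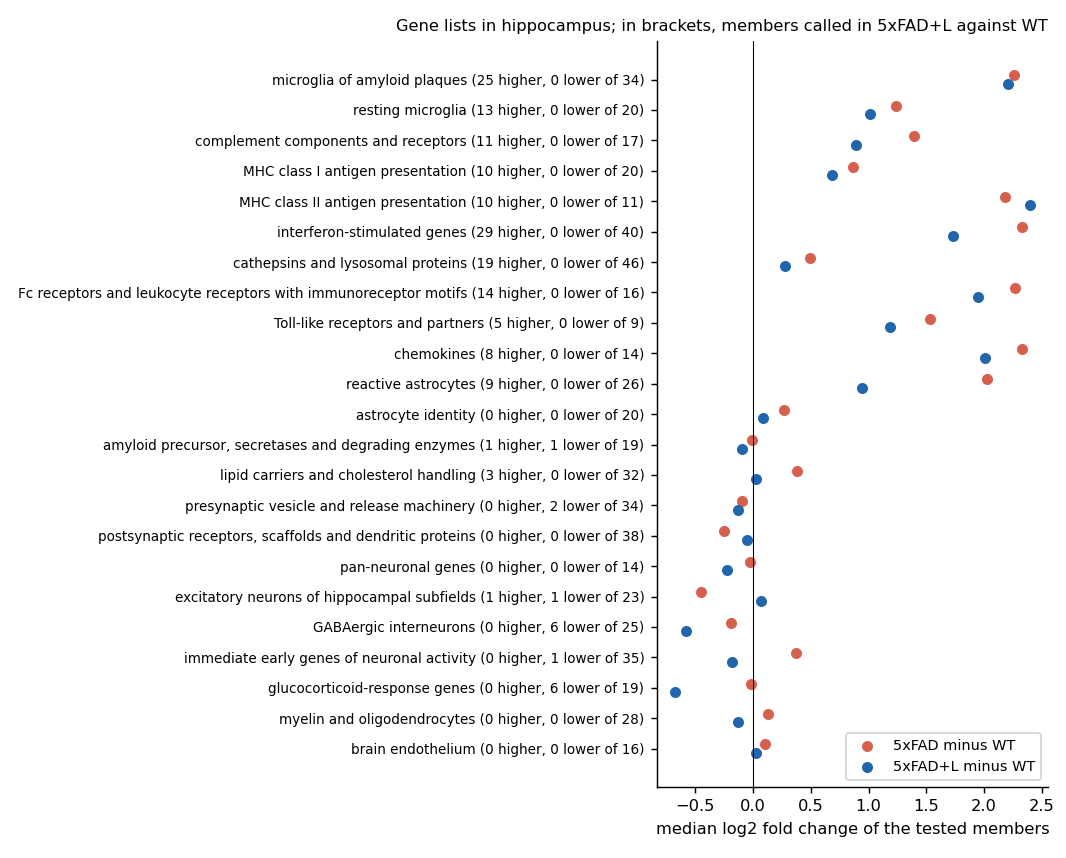
Median log2 fold change of the tested members of 23 gene lists (x axis), in 5xFAD+L against WT (blue) and untreated 5xFAD against the same WT mice (red), with the number of members called in 5xFAD+L beside each name. Most microglial and immune lists lie well to the right for both groups, with the lysosomal list nearest to 0 at 0.28 for 5xFAD+L, reactive astrocytes at 0.94 and 2.02, and the interneuron and glucocorticoid-response lists to the left for 5xFAD+L, at -0.58 and -0.68.

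Outside the lists, the largest changes with separate groups included more receptors of myeloid and lymphoid cells. Hcar2, the niacin and ketone-body receptor, measured 1.6, 2.08, 4.03 and 3.34 FPKM against 0.04, 0.06, 0.1 and 0.05 FPKM (log2 fold change 5.44 ± 0.76, adjusted p = 0.000808). Pdcd1, the inhibitory receptor PD-1, measured 1.33, 2.13, 3.43 and 3.86 FPKM against 0.09, 0.09, 0.21 and 0.03 FPKM (log2 fold change 4.78 ± 0.60, adjusted p = 0.000369). Ly9, a self-binding SLAM family receptor, rose by 4.46 ± 0.51. All 3 were low or near absent in WT and present in each light-treated mouse. They passed the filter through the light-treated mice, and separate groups were a condition for naming them. That pattern was therefore partly set by the selection. None of the 3 passed the test against untreated 5xFAD (adjusted p = 0.823, 0.851 and 0.524).

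Reactive astrocyte genes were raised less than in untreated 5xFAD by their median, but the untreated mice varied widely. The list summed to 1054, 1024, 1462 and 1536 FPKM in 5xFAD+L and to 4010, 1305, 719 and 1989 FPKM in 5xFAD. Meningeal fibroblast genes also summed higher in 5xFAD (1083 to 3146 FPKM) than in 5xFAD+L (605 to 892 FPKM). The part of that tissue in the astrocyte list was not tested. Of 30 genes 26 were tested and 9 were higher (against 2.96% of all genes tested), none lower, at a median log2 fold change of 0.94. In untreated 5xFAD 18 were higher (against 6.05% of all genes tested) and the median was 2.02. Several of the 9, among them Cd14, Cxcl10, Srgn and Gbp2, are also expressed by microglia. Gfap, the intermediate filament by which reactive astrocytes are recognised, measured 759.8, 739, 1057 and 1085 FPKM in 5xFAD+L, 263, 245, 234 and 219 FPKM in WT and 2604, 877, 318 and 1441 FPKM in 5xFAD. Light-treated mice were tightly grouped above WT, and the untreated mice were spread widely around them. The log2 fold change was 1.94 ± 0.44 against WT (adjusted p = 0.0246) and -0.54 ± 0.43 against 5xFAD (95% interval -1.46 to 0.38, adjusted p = 0.526). Gfap and the next 2 genes were singled out after their values were seen. C4b, a complement component made by reactive astrocytes, was 33.1, 27.9, 38.7 and 52.2 FPKM against 10.8, 10.4, 9.47 and 8.03 FPKM (log2 fold change 1.99 ± 0.41, adjusted p = 0.0123), and Serpina3n, an acute-phase protease inhibitor, was not called (46.1 to 61.6 FPKM against 29.6 to 34.97 FPKM, adjusted p = 0.533). Aspg, an asparaginase, rose by 2.20 ± 0.37. In the direct comparison with 5xFAD, 25 of the 26 genes had a negative log2 difference (median -0.81), and none was called by edgeR, with 14 lower at an unadjusted p below 0.05, 6 called by DESeq2 and none by limma. The 9 calls against WT became 5 without replicate 4 of WT. None of 20 genes of astrocyte identity was called against WT by edgeR, with 3 higher at an unadjusted p below 0.05, 1 called by DESeq2 and none by limma.

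The genes of the transgenes and of amyloid processing were little changed apart from Thy1. Thy1, at chr9:44043384-44048579 (GRCm38), measured 522, 434, 444 and 486 FPKM in 5xFAD+L, 186, 170.3, 181 and 189 FPKM in WT and 622, 439, 407 and 573 FPKM in 5xFAD. Carriers and non-carriers were fully separated, and treated and untreated carriers overlapped (log2 fold change 1.41 ± 0.14 against WT, adjusted p = 0.000102, and -0.12 ± 0.13 against 5xFAD, 95% interval -0.41 to 0.17). The transgenes carry Thy1 sequence, and whether reads from them entered this row was not tested. The mouse App row measured 178 to 215 FPKM against 205 to 233 FPKM (log2 fold change -0.13 ± 0.08, adjusted p = 0.445). It was not called, and the human transgenes were not measured separately here. Aph1b, a gamma-secretase subunit, was lower (4.45 to 5.3 FPKM against 6.67 to 8.42 FPKM, log2 fold change -0.65 ± 0.15, adjusted p = 0.0291), a call lost without 6 of the 8 mice in turn (adjusted p 0.0451 to 0.0953 over the 8). The other 17 of 19 genes of this list were not called by edgeR, while DESeq2 called 2 of the 19 higher and 1 lower and limma 2 higher.

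Of 36 tested mouse genes listed as counterparts of genes at human Alzheimer's disease risk loci, 11 were higher (against 2.96% of all genes tested) and none lower. Whether each listed gene has a direct human counterpart was not checked. The 5 with the smallest p were Trem2, Grn, Siglech, Ctsh and Cd33, all known from myeloid cells. Siglech is also on the list of resting microglia. Cd33, an inhibitory sialic acid receptor, measured 5.54, 4.82, 5.46 and 5.89 FPKM against 2.24, 2.56, 2.35 and 2.22 FPKM (log2 fold change 1.13 ± 0.16, adjusted p = 0.000854). Of 32 lipid carrier and cholesterol genes 3 were higher and none lower. Ch25h, which makes the oxysterol 25-hydroxycholesterol, rose from 0.1 to 0.8 FPKM to 1.74 to 3.71 FPKM (adjusted p = 0.0132, or 0.0541 without replicate 4 of WT). The lysosomal cholesterol carrier gene Npc2 was higher by 0.87 ± 0.19, a call lost when replicate 3 or 4 of 5xFAD+L or replicate 1 or 4 of WT was left out (adjusted p 0.0046 to 0.0633 over the 8 mice). Clu, the chaperone clusterin, was higher by 0.47 ± 0.10, a call lost without replicate 3 or 4 of 5xFAD+L or any 1 of the 4 WT mice (adjusted p 0.0244 to 0.0822).

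Genes of GABAergic interneurons formed 1 of 2 groups of the lists in which several members were lower in light-treated 5xFAD than in WT hippocampus. Of 26 genes 25 were tested, 6 were lower (against 0.547% of all genes tested) and none higher, 24 of 25 had a negative log2 fold change, and the median was -0.58, beside -0.19 in untreated 5xFAD. Somatostatin, Sst, at chr16:23889573-23890958 (GRCm38), measured 156, 50.2, 137 and 171 FPKM in 5xFAD+L, 408, 312, 391 and 372 FPKM in WT and 152, 270.0, 254 and 279.9 FPKM in 5xFAD. All light-treated mice were below all WT mice, replicate 2 most of all, and the untreated mice lay between the groups or among the light-treated ones. Sst had a log2 fold change of -1.51 ± 0.30 against WT (adjusted p = 0.0108), and the call held without each of the 8 mice in turn (adjusted p 0.00142 to 0.0348). Its difference from 5xFAD was -0.89 ± 0.30 (95% interval -1.53 to -0.25, adjusted p = 0.154). Crhbp, the corticotropin-releasing hormone binding protein, which is found in somatostatin cells, measured 12.1, 3.63, 9.33 and 12.9 FPKM against 21.7, 22.2, 27.9 and 24.8 FPKM (log2 fold change -1.34 ± 0.29, adjusted p = 0.0201), a call lost without replicate 3 of 5xFAD+L or replicate 3 or 4 of WT (adjusted p 0.00239 to 0.0656 over the 8 mice). The GABA-synthesising enzymes fell by less. Gad1 measured 68.3, 70.7, 58.5 and 50.6 FPKM against 101, 93.96, 77.05 and 83.1 FPKM (log2 fold change -0.52 ± 0.11, adjusted p = 0.0141) and Gad2 14.2, 12.7, 11.5 and 11.2 FPKM against 21.1, 17.8, 17.1 and 18.5 FPKM (-0.58 ± 0.12, adjusted p = 0.0114). Slc32a1, the vesicular GABA transporter, measured 3.48, 3.68, 3.79 and 3.72 FPKM against 6.64, 6.73, 6.39 and 6.33 FPKM (log2 fold change -0.82 ± 0.19, adjusted p = 0.0242) and the cannabinoid receptor gene Cnr1 14.8, 10.8, 14.3 and 14.3 FPKM against 21.6, 20.8, 22.4 and 20.9 FPKM (-0.65 ± 0.15, adjusted p = 0.0295). In each of these the 2 groups did not overlap, an order in the lower direction that 7.69% of all genes tested showed. For Crhbp this order was a condition of being named.

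The interneuron calls were not stable when a mouse was left out. Leaving out any 1 of the 8 mice brought the 6 called genes to between 1 and 3, with 1 when replicate 1 of WT was left out. Gad2 lost its call without replicate 1 of WT (adjusted p = 0.0501), Gad1 without replicate 3 or 4 of 5xFAD+L or replicate 1 of WT (adjusted p 0.0118 to 0.0594), and Slc32a1 and Cnr1 without any 1 of the 8 (adjusted p 0.056 to 0.0743 and 0.052 to 0.0814). Over these 8 fits the log2 fold change stayed at -0.85 to -0.79 for Slc32a1 and at -0.69 to -0.54 for Cnr1. Without replicates 1 and 2 of 5xFAD+L together, Sst, Gad1 and Gad2 kept their calls and Slc32a1 and Cnr1 did not (adjusted p = 0.281 and 0.262), and limma did not call Gad1. DESeq2 called 8 genes lower on the same 12 libraries, and edgeR called 12 on the 8 libraries alone. Markers of other interneuron subtypes did not pass the test, as for Pvalb (31.9, 25.4, 41.2 and 44.8 FPKM against 65.3, 53.8, 73.1 and 59.5 FPKM, adjusted p = 0.25) and Vip (6.86, 6.62, 18.7 and 9.88 FPKM against 25.2, 21.7, 19.7 and 18.9 FPKM, adjusted p = 0.236), both looked up after their values were seen and both below WT in every light-treated mouse. Against untreated 5xFAD none of the 25 genes was called by edgeR, with 8 lower at an unadjusted p below 0.05, 8 called lower by DESeq2 and none by limma. The summed level of 14 pan-neuronal genes was 3054 to 3396 FPKM in 5xFAD+L and 3520 to 3868 FPKM in WT, without overlap, and none of the 14 was called by edgeR, DESeq2 or limma, with 3 lower at an unadjusted p below 0.05 in edgeR. Genes of cortex and striatum summed to 165 to 192 FPKM against 187 to 214 FPKM. Of 13 such genes tested, 2 were called lower (against 0.547% of all genes tested) and none higher. These were Fezf2 and Ccn2, both given below, with calls that were lost in some fits without 1 mouse. Genes of thalamus summed to 324 to 794 FPKM against 452 to 531 FPKM, the highest in replicate 2 of 5xFAD+L. The part of neighbouring tissue and of the dissection in these differences was not tested.

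Glucocorticoid-response genes formed the other lower group. Of 22 genes 19 were tested, 6 were lower (against 0.547% of all genes tested) and none higher. The median log2 fold change was -0.68, beside -0.018 in untreated 5xFAD against WT. Sgk1, a kinase gene induced by corticosteroids and at chr10:21882184-21999903 (GRCm38), measured 36.5, 37.9, 39.8 and 37.9 FPKM in 5xFAD+L, 128, 62.7, 120.4 and 87.1 FPKM in WT and 66.95, 73.5, 74.5 and 90.5 FPKM in 5xFAD. The light-treated mice were nearly identical and lay below all 8 others (log2 fold change -1.34 ± 0.18 against WT, adjusted p = 0.00074, and -0.98 ± 0.18 against 5xFAD, adjusted p = 0.0498). Tsc22d3, which encodes the glucocorticoid-induced leucine zipper, measured 31.8, 38.95, 35.98 and 33.1 FPKM in 5xFAD+L, 108, 70.1, 74.9 and 81.8 FPKM in WT and 30.7, 76.5, 90.8 and 75.3 FPKM in 5xFAD (log2 fold change against WT -1.27 ± 0.25, adjusted p = 0.00973). It was below WT in every light-treated mouse, and replicate 1 of 5xFAD was as low. Errfi1, an inhibitor of the EGF receptor, measured 13.9, 14.6, 11.7 and 12.6 FPKM against 26.9, 19.6, 22.7 and 21.3 FPKM (log2 fold change -0.77 ± 0.17, adjusted p = 0.0172). Zbtb16, a zinc finger transcription factor gene, had a log2 fold change of -0.47 ± 0.10 (adjusted p = 0.0205) and Nfkbia, the inhibitor of NF-kappa-B, of -0.86 ± 0.21 (adjusted p = 0.0344). Fkbp5, a co-chaperone gene commonly read as a marker of glucocorticoid action and looked up for that reason, did not pass the test (5.67 to 8.54 FPKM against 4.7 to 7.25 FPKM, adjusted p = 0.801).

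Sgk1 and Tsc22d3 kept their calls without each of the 8 mice (adjusted p 0.000194 to 0.00357 and 0.0149 to 0.0387), whereas the list's 6 calls became 2 without replicate 1 of WT or replicate 4 of 5xFAD+L and 3 without replicate 1 or 3 of 5xFAD+L or replicate 4 of WT. With both replicates 1 and 2 of 5xFAD+L left out only 1 of the list was called, Sgk1 (adjusted p = 0.0202), and Tsc22d3 then had an adjusted p of 0.121. Errfi1, Zbtb16 and Nfkbia lost their calls without 3, 4 and 7 of the 8 mice in turn, replicate 1 of WT among them each time. Letters of the glucocorticoid response element (GNACANNNTGTNC, both strands) occurred in the 250 bases before the start of 1 of 5 called genes with a promoter in the RefSeq table, Sgk1, beside 0.31% of 10001 tested genes. This list too was chosen for a known response, and its uncalled members were not counted.

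Few other neuronal genes were called lower, although more lay below WT without a call. Of the immediate early genes, 1 was higher and 7 were lower at an unadjusted p below 0.05 in edgeR. In 10 of them every light-treated mouse was below every WT mouse, an order that 7.69% of all genes tested showed. Against untreated 5xFAD, 2 were higher and 17 lower at that unadjusted p, none was called by edgeR, and DESeq2 called 8 lower and limma 1. Of 35 immediate early genes 1 was called lower than in WT (against 0.547% of all genes tested), the nuclear receptor gene Nr4a2, at 7.03, 8.41, 10.9 and 7.4 FPKM in 5xFAD+L, 21.3, 21.1, 16.1 and 18.99 FPKM in WT and 16.5, 12.6, 8.79 and 12.6 FPKM in 5xFAD (log2 fold change against WT -1.23 ± 0.17, adjusted p = 0.000823). Light-treated and WT mice were separated, the untreated mice lay across the gap, and the call held without each of the 8 mice and without replicates 1 and 2 of 5xFAD+L together (adjusted p = 0.0263). Of 34 presynaptic genes 2 were called lower (against 0.547% of all genes tested), Slc32a1 and Sv2b, a synaptic vesicle glycoprotein gene, which measured 30.9, 30.9, 44.2 and 40.6 FPKM against 62.0, 59.02, 66.3 and 59.1 FPKM (log2 fold change -0.73 ± 0.16, adjusted p = 0.0219) and lost its call without 5 of the 8 mice in turn (adjusted p 0.0161 to 0.0773) and without that pair (0.323). At an unadjusted p below 0.05 in edgeR, 3 presynaptic genes were higher and 8 lower, and 4 and 9 were separate from WT in these directions. Of 26 neuropeptide genes Sst alone was called, with 2 higher and 7 lower at that unadjusted p. Syp, whose product synaptophysin marks presynaptic terminals, was not called, at 587, 599, 607 and 549 FPKM against 656, 646, 629 and 713 FPKM (log2 fold change -0.16 ± 0.15, 95% interval -0.48 to 0.15, adjusted p = 0.62). Nor were Map2, a dendritic microtubule protein gene (123, 133, 150.0 and 143 FPKM against 167, 175, 175 and 161 FPKM, adjusted p = 0.32), and Rbfox3, which encodes the neuronal nuclear antigen NeuN (177, 181, 154 and 152 FPKM against 151, 165, 148 and 179 FPKM, adjusted p = 0.781). Syp and Map2 were nevertheless lower in every light-treated than in every WT mouse, an order that 7.69% of all genes tested showed. None of 38 postsynaptic genes was called by edgeR, with 2 higher and 5 lower at an unadjusted p below 0.05, 2 called lower by DESeq2 and none by limma. Fezf2, a transcription factor gene of deep-layer cortical neurons that is also active in the hippocampal formation, measured 5.53, 4.79, 9.06 and 10.5 FPKM against 19.8, 16.1, 15.99 and 16.3 FPKM (log2 fold change -1.17 ± 0.24, adjusted p = 0.0129, and 0.0501 without replicate 1 of WT or 0.0982 without replicates 1 and 2 of 5xFAD+L).

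**Figure D4:**
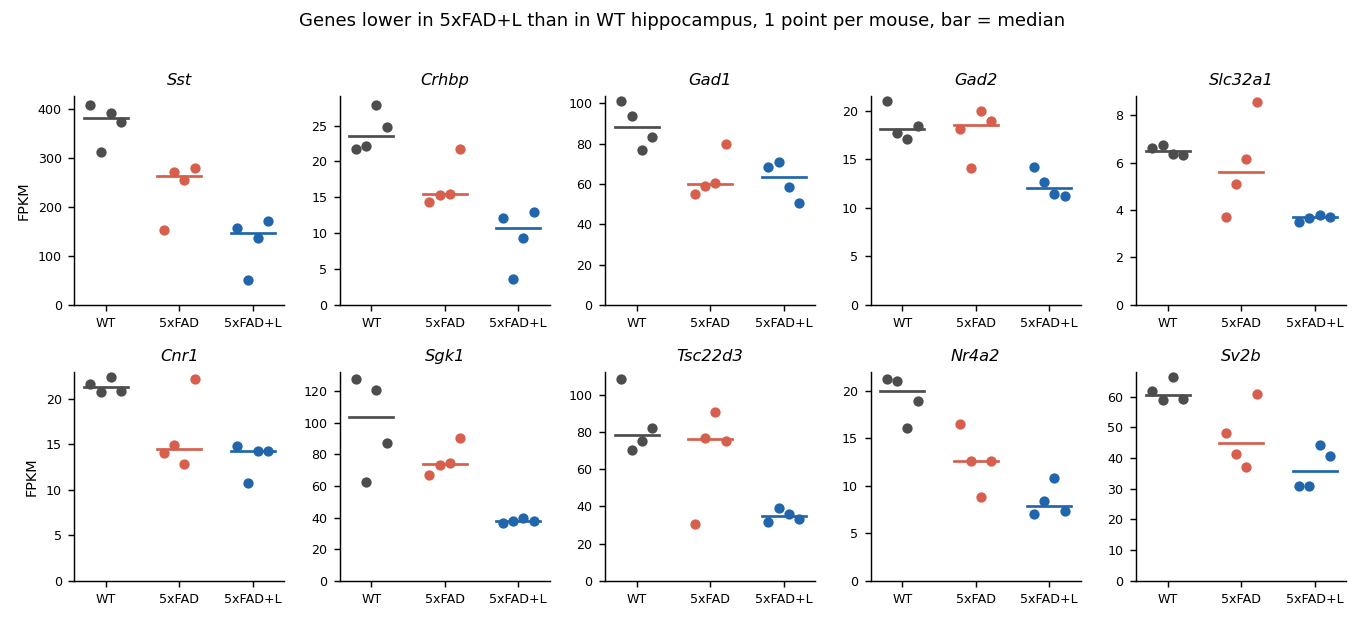
FPKM on linear y axes starting at 0 of 10 genes lower in 5xFAD+L than in WT hippocampus, 1 point per mouse (4 a group) and a bar at the group median. In all 10 panels the 4 light-treated mice lie below the 4 WT mice, and untreated 5xFAD mice lie between them or overlap one or both groups, as for Sst at 50.2 to 171, 152 to 279.9 and 312 to 408 FPKM in 5xFAD+L, 5xFAD and WT.

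Among the 443 genes that differed from WT, 9 also differed between light-treated and untreated 5xFAD mice at an adjusted p below 0.05 in the same fit, 5 of them lower and 4 higher. Over all genes tested, 0.428% differed between these mice. Both comparisons share the light-treated mice, so that an overlap is partly built in and is not a result in itself. None of the 9 passed the test in untreated 5xFAD against WT (adjusted p 0.254 to 0.97), which 7.94% of all genes tested did. Plekhf1, a gene for a lysosome-associated phosphoinositide-binding protein, at chr7:38216972-38228016 (GRCm38), measured 0.42, 0.96, 0.87 and 0.86 FPKM in 5xFAD+L, 2.56, 1.5, 2.57 and 1.82 FPKM in WT and 2.55, 2.35, 2.66 and 2.54 FPKM in 5xFAD. The light-treated mice were below all 8 others (log2 fold change -1.44 ± 0.24 against WT, adjusted p = 0.00323, and -1.71 ± 0.24 against 5xFAD, adjusted p = 0.0313). Ccn3, a secreted matricellular protein gene, measured 2.7, 2.48, 4.67 and 4.7 FPKM, against 12.1, 10.9, 10.2 and 9.08 FPKM in WT and 5.74, 11.2, 9.98 and 13.9 FPKM in 5xFAD. It too was below all others (log2 fold change -1.52 ± 0.26 and -1.48 ± 0.26, adjusted p = 0.00382 and 0.045). Prr5, a component of mTOR complex 2, measured 2.9, 4.36, 4.23 and 2.98 FPKM against 5.01 to 9.6 FPKM and 7.13 to 9.93 FPKM, and the cadherin gene Cdh22 1.73, 2.33, 2.57 and 2.44 FPKM against 3.51 to 5.62 FPKM and 3.37 to 6.12 FPKM, both without overlap. Against WT, the call of Prr5 was lost without replicate 1 of WT (adjusted p = 0.0511), and that of Cdh22 without 5 of the 8 mice in turn (adjusted p 0.0398 to 0.105). Sgk1, given above, was the fifth lower gene. The 9 genes were taken because they were called in both comparisons, so that their separation from the other groups was partly set by the selection.

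**Figure D5:**
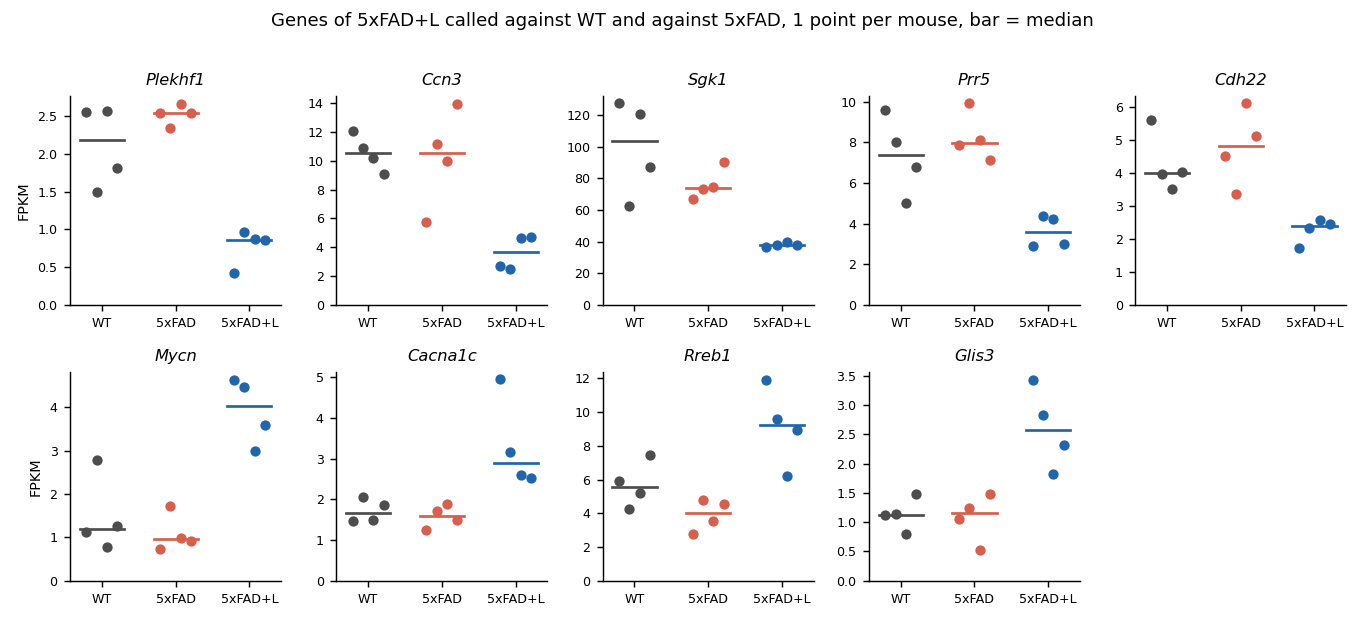
FPKM on linear y axes starting at 0 of the 9 genes of 5xFAD+L that were called against WT and against untreated 5xFAD, 1 point per mouse (4 a group) and a bar at the group median. The upper 5 genes have light-treated mice below both other groups, as for Plekhf1 at 0.42 to 0.96 FPKM, and the lower 4 have higher light-treated medians, with Rreb1 overlapping WT.

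The 4 higher genes were Cacna1c, Mycn, Rreb1 and Glis3. Cacna1c, the pore-forming subunit of the L-type calcium channel Cav1.2, at chr6:118587240-119196418 (GRCm38), measured 4.95, 3.16, 2.61 and 2.53 FPKM in 5xFAD+L, 1.47, 2.05, 1.49 and 1.86 FPKM in WT and 1.24, 1.71, 1.88 and 1.49 FPKM in 5xFAD. All light-treated mice were above all others, replicate 1 most of all (log2 fold change 0.79 ± 0.15 against WT, adjusted p = 0.00662, and 1.03 ± 0.15 against 5xFAD, adjusted p = 0.0313). Mycn, a transcription factor gene of neural progenitors, measured 4.62, 4.47, 3 and 3.6 FPKM against 1.12, 2.78, 0.77 and 1.27 FPKM and 0.73, 1.72, 0.99 and 0.92 FPKM. Its separation from WT was narrow because of 1 WT mouse (log2 fold change 1.43 ± 0.35 and 1.84 ± 0.35, adjusted p = 0.0362 and 0.0498), and the call against WT was lost without 6 of the 8 mice in turn (adjusted p 0.00405 to 0.135). The zinc finger gene Rreb1 measured 11.9, 9.61, 6.22 and 8.92 FPKM against 5.9, 4.26, 5.23 and 7.45 FPKM and 2.79, 4.77, 3.52 and 4.53 FPKM, and the transcription factor gene Glis3 3.42, 2.82, 1.82 and 2.32 FPKM against 1.12, 1.14, 0.79 and 1.48 FPKM and 1.06, 1.25, 0.53 and 1.48 FPKM. Rreb1 lost its call against WT without 4 of the 8 mice in turn (adjusted p 0.0113 to 0.0806), and Glis3 and Cacna1c kept theirs. Without replicates 1 and 2 of 5xFAD+L together, Plekhf1 and Sgk1 kept their calls against WT (adjusted p = 0.0199 and 0.0202), whereas Ccn3 (0.0589), Cacna1c (0.0606), Prr5 (0.111), Glis3 (0.163), Cdh22 (0.318), Mycn (0.341) and Rreb1 (0.355) did not. On log2 FPKM, limma did not call Cacna1c and Rreb1 against WT with either pseudocount, nor Glis3 with a pseudocount of 0.1. None of the 9 differences from untreated 5xFAD stayed below an adjusted p of 0.05 in the fits that left out replicate 1, 2 or 4 of 5xFAD+L or replicate 1 or 4 of WT, since those fits called no gene at all. Of the 21 genes lower in 5xFAD+L than in 5xFAD, 6 were meningeal fibroblast genes (Col6a1, Col6a2, Igfbp6, Crabp2, Fmod and Pcolce), none of which was called against WT. The summed level of that list of 28 genes was 605 to 892 FPKM in 5xFAD+L, 466 to 1065 FPKM in WT and 1083 to 3146 FPKM in 5xFAD.

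Against WT, edgeR called none of 28 myelin and oligodendrocyte genes, 22 meningeal fibroblast genes, 12 choroid plexus genes, 16 endothelial genes and 9 mural genes. At an unadjusted p below 0.05 there were 1 higher and 1 lower oligodendrocyte gene, 2 and 2 fibroblast genes, 1 and 4 choroid plexus genes, 2 and 3 endothelial genes and no mural gene. DESeq2 called 2 fibroblast genes higher and 1 lower, 1 choroid plexus gene higher and 1 endothelial gene lower, and limma called none. Myelin genes varied widely within both groups, summing to 3023, 3210, 3975 and 6405 FPKM in 5xFAD+L and 3018 to 5408 FPKM in WT. Choroid plexus genes summed to 117 to 340 FPKM in 5xFAD+L and 89.4 to 3221 FPKM in WT. Of 23 genes of hippocampal excitatory subfields, Glis3 was higher and Mpped1, a metallophosphoesterase gene, was lower (28.1, 31.4, 40.6 and 42.1 FPKM against 69.6, 61.3, 57.8 and 54.7 FPKM, log2 fold change -0.76 ± 0.18, adjusted p = 0.0276), the latter call being lost without 6 of the 8 mice in turn (adjusted p 0.0351 to 0.1).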

How the data were processed

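RNA of 1 hippocampus from each of 4 WT, 4 5xFAD and 4 5xFAD+L mice was sequenced after oligo-dT based full-length amplification. The authors deposited RSEM estimated counts per gene and FPKM, and their methods name fastp, RSEM and DESeq2, whereas the submitters' processing notes list Trimmomatic, HISAT2, StringTie and DESeq2 with the build mm10 and no roles. Samples were grouped by genotype and treatment in the labels. The estimated counts were rounded, genes reaching 1 FPKM in 3 or more of the 8 samples compared were kept, and edgeR 4.0.16 (R 4.3.3; TMM scaling, quasi-likelihood test) was fitted over all 12 hippocampal samples, with 5xFAD+L against WT as the main contrast and Benjamini-Hochberg adjustment over 12618 genes. Called means an adjusted p below 0.05, in either direction at any fold unless 2-fold is stated. The biological coefficient of variation was 0.192, and totals of between 13952825 and 23856476 counts limit the genes of low level. Each comparison of 5xFAD+L with WT and with 5xFAD shares the light-treated samples, and that of 5xFAD shares WT. Estimated counts of close gene copies are uncertain, and whether counting used strand is not given in the sources used here.

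DESeq2 1.42.0, limma 3.58.1 on log2(FPKM + 1) and log2(FPKM + 0.1), DESeq2 size factors, other filters, the 8 samples alone, a replicate block and leaving out mice were alternatives, and the code was tested on simulated data. Genes named were the 12 largest higher and 12 largest lower 2-fold changes with separate groups, up to 5 called genes per list and direction by smallest p, Thy1, App, Aif1, Rbfox3, Syp and Map2, and genes also called against 5xFAD, and others are said to be looked up. A few genes that this rule names are not reported here. The members and gene lists were chosen with earlier results of these data known. Gene positions were from GENCODE (GRCm38, the same assembly as mm10) by gene ID, and promoters from RefSeq (GRCm38.p6) by symbol. No 2 replicates agreed within sampling noise. The labels give each sample as 1 mouse. The meninges, the meningeal lymphatic endothelial cells and the authors' own comparisons were not used here.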

Additional observations from a re-analysis of the deposited data

Results flagged for a closer look

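In 14 of 252 groups of 4 mice (5.56%) 1 mouse was far from the other 3 by Dixon's 95% criterion for the gap over the group's range, and chance flags about 1 in 20 groups. In 5xFAD+L replicate 1 this was the case for the MHC class II genes Cd74 (352 FPKM, others 14.1 to 54.3), H2-Ab1 (122 FPKM, others 4.86 to 15.5) and H2-Aa (108 FPKM, others 3.37 to 13.9). Replicate 2 of 5xFAD+L was low for Cnr1 (10.8 FPKM, others 14.3 to 14.8), and replicate 3 was high for Ccn2 (2.17 FPKM, others 0.83 to 0.87) and for the ribosomal protein gene Rpl3 (633 FPKM, others 547 to 559). In WT, replicate 1 was high for Fezf2 (19.8 FPKM, others 16.0 to 16.3) and the nuclear receptor gene Nr2f2 (7.49 FPKM, others 4.53 to 4.98). Replicate 3 of WT was low for the lysosomal membrane gene Laptm5 (30.9 FPKM, others 35.3 to 36.0) and for the circadian clock list (summed FPKM 312, others 358 to 363), and high for the resting microglia list (summed FPKM 5734, others 4861 to 4951). Replicate 4 of WT was low for the phosphatase gene Ptpn6 (2.61 FPKM, others 3.2 to 3.25) and the cathepsin gene Ctsh (7.07 FPKM, others 8.56 to 8.79), and replicate 2 of WT was high for the immediate early list (summed FPKM 797, others 728 to 734).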

How the results depend on the processing

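No named call turned direction under any alternative run, and 94 of 94 kept their call with DESeq2, with DESeq2 size factors and with the 2 groups alone, 86 with the replicate block, 83 with limma on log2(FPKM + 1) and 71 to 84 when 1 of the 8 mice was left out, while 53 of 76 tested were kept without 5xFAD+L replicates 1 and 2 together. The cause of the changes in the counts below was not tested, except that fewer genes or mice entered some of the fits. Genes with a mean of at least 5 FPKM gave 107 higher and 8 lower 2-fold, 174 and 41 at any fold, 0 between 5xFAD+L and 5xFAD, 575 between 5xFAD and WT, and 6 MHC class I, 8 interferon, 7 Fc receptor, 3 Toll-like receptor, 3 chemokine and 4 reactive astrocyte genes. The 2 groups alone gave 42 lower 2-fold, 682 higher and 393 lower at any fold, 15 reactive astrocyte, 12 interneuron and 11 glucocorticoid genes. DESeq2 gave 35 lower 2-fold, 585 higher and 236 lower, 608 against 5xFAD and 1559 between 5xFAD and WT. On the 8 samples without a filter it gave 512 and 63 2-fold, 1077 and 725 at any fold, 16 reactive astrocyte, 14 interneuron and 11 glucocorticoid genes. Without a filter edgeR gave 104 genes against 5xFAD. On log2(FPKM + 1) limma gave 179 and 7 2-fold and 3 glucocorticoid genes.

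Leaving out 1 of the 8 mice gave 212 to 285 higher and 7 to 20 lower 2-fold, 263 to 358 and 21 to 55 at any fold, 0 to 78 against 5xFAD and 583 to 932 between 5xFAD and WT. Called members were then 20 to 28 plaque-associated, 11 to 15 resting microglia, 9 to 11 complement, 9 to 10 MHC class I, 5 to 11 MHC class II, 25 to 30 interferon, 15 to 19 lysosomal, 12 to 13 Fc receptor, 4 to 5 Toll-like receptor, 6 to 9 chemokine, 5 to 9 reactive astrocyte, 1 to 3 interneuron and 2 to 7 glucocorticoid genes. The lower counts fell most without WT replicate 1 (7 2-fold, 21 at any fold). Alternatives chosen after seeing the data were leaving out 5xFAD replicate 3 (28 lower 2-fold, 212 lower at any fold, 3 against 5xFAD, 1046 between 5xFAD and WT) and leaving out 5xFAD+L replicates 1 and 2 (5 and 10 lower, 0 against 5xFAD, 17 interferon, 3 Toll-like receptor, 3 chemokine, 3 interneuron and 1 glucocorticoid gene).

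With the replicate number as a block, 255 genes were higher and 12 lower 2-fold, 331 and 49 at any fold, and 56 were called against 5xFAD. Same-numbered mice did not deviate together (r -0.273 to 0.075), so that the numbers do not pair the mice, and not every sample correlated best with its own number.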

Other observations

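Genes of energy metabolism and protein synthesis differed by small amounts in 5xFAD+L against WT hippocampus, mostly in 1 direction within each list. None of 37 complex I genes, 16 complex IV genes and 17 ATP synthase genes was called by edgeR, DESeq2 or limma, with 1 complex IV gene lower at an unadjusted p below 0.05, and their median log2 fold changes were -0.09, -0.14 and -0.10. In these lists 33, 13 and 16 genes had a negative log2 fold change. Of 75 ribosomal protein genes 62 had a positive one, with a median of 0.13, and 7 were higher and none lower at an unadjusted p below 0.05 in edgeR. Of 75 ribosomal protein genes edgeR called 1, Rpl3, at 556, 547, 633 and 559 FPKM against 455, 453, 440.3 and 468 FPKM (log2 fold change 0.35 ± 0.08, adjusted p = 0.0357 by edgeR), and the call was lost without 7 of the 8 mice in turn. Of 29 heat shock and chaperone genes 27 had a negative log2 fold change, with a median of -0.19, and edgeR called 1 lower (DESeq2 4, limma 1). This was Dnajb1, a co-chaperone of HSP70, at 17.4, 20.04, 18.2 and 16.5 FPKM against 27.9, 27.04, 23.6 and 22.3 FPKM (log2 fold change -0.47 ± 0.09, adjusted p = 0.00579), and it stayed called without each of the 8 mice (adjusted p 0.00667 to 0.03). Of 22 circadian clock genes edgeR called Per2 lower, DESeq2 3 genes and limma none. Per2 measured 2.18, 2.25, 2.11 and 2.39 FPKM against 4.04, 5.43, 2.99 and 4.43 FPKM (adjusted p = 0.0337), a call lost without 7 of the 8 mice in turn.

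Among ion channels, Kcnn2, which encodes a small-conductance calcium-activated potassium channel, was lower, at 15.1, 18.7, 16.3 and 16.1 FPKM against 29.5, 28.6, 21.7 and 24.7 FPKM (log2 fold change -0.58 ± 0.11, adjusted p = 0.00973), and kept its call without each of the 8 mice (adjusted p 0.0135 to 0.0406) but not without replicates 1 and 2 of 5xFAD+L together (0.114) or in limma with either pseudocount. By edgeR it was the 1 called of 43 potassium channel genes, and Cacna1c the 1 called of 27 calcium and sodium channel genes. None of 27 antioxidant, 44 axon guidance and 36 protocadherin genes was called by edgeR or limma. DESeq2 called 1 antioxidant gene higher and 1 lower, 1 guidance gene higher and 1 protocadherin gene higher, and at an unadjusted p below 0.05 in edgeR 3, 5 and 2 were higher and 1, 4 and 1 were lower. Ccn2, a matricellular protein gene on the list of cortex and striatum, measured 0.84, 0.87, 2.17 and 0.83 FPKM in 5xFAD+L and 7.75, 4.67, 1.67 and 3.94 FPKM in WT. It was called lower (log2 fold change -1.86 ± 0.46, adjusted p = 0.0394), a call lost without 6 of the 8 mice in turn.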
